A study of Rattus norvegicus with 24 samples.

Results

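The genes of glycolysis and the citric acid cycle were followed in RBEC4, a rat brain endothelial cell line that serves in blood-brain barrier studies, after exposure to silver nanoparticles. Members were the array probes whose gene symbol is in a set naming enzymes of these routes, their isozymes and kinases that control them. Symbols were matched by their letters, which also brought in Pgam5, not an enzyme of these routes. The set leaves out succinate dehydrogenase, an enzyme of the cycle, which is given with the neighbouring genes. That gave 53 probes for 51 genes, of 22523 probes on the array, 13793 of which had a symbol. Cells were untreated (control, 4 arrays) or exposed for 18 h to 1 ppm of silver particles, with 5 arrays for each kind of particle. Particles of 10 or 75 nm were coated with polyvinylpyrrolidone (PVP) or with citrate, and the groups are written PVP10, PVP75, citrate10 and citrate75. All groups were 1 cell line, and the labels do not say whether the arrays of a group came from separate cultures, so the spread behind every p-value is that between arrays and may be technical. The 24 arrays lay on 2 BeadChips that each held all 5 groups.

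Glycolysis splits glucose into pyruvate in the cytosol, and lactate dehydrogenase turns pyruvate into lactate. Pyruvate that enters the mitochondrion is converted by the pyruvate dehydrogenase complex, which pyruvate dehydrogenase kinases inhibit, into acetyl-CoA, and the citric acid cycle oxidizes it and passes electrons to the respiratory chain. Endothelial cells are known for drawing most of their energy from glycolysis, and brain endothelium is known for being rich in mitochondria.

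Most members gave no signal above background. A probe was counted as detected on an array when its detection p was under 0.01, and as measured when it was detected on at least 4 arrays. By that rule 12 probes of 11 genes were measured, 8 genes on all 24 arrays and 3 on fewer, and 36 genes were detected on 0 arrays. Across the array 2774 probes (12.3%) were measured. The genes detected on every array were Aldoa, Ldha, Pdk3, Cs, Idh2, Idh3g, Suclg1 and Mdh2. Eno4 was detected on 13 arrays, and Gapdh and Idh3a on 4 each. Aco1, Idh3b, Pdk2 and Pklr were detected on 2 arrays each and were not measured.

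The undetected probes included enzymes that every glycolytic cell uses. Gpi, Tpi1, Pgk1, Eno1 and Pkm, which encode single steps between hexose phosphate and pyruvate, were detected on 0 of 24 arrays. Their median deposited intensities lay between 84.1 (Gpi) and 90.2 (Pkm), whereas the brighter probe of Aldoa, the aldolase gene of the same route, had a median of 1820. Gapdh, the classic housekeeping gene of glycolysis, had a median of 97.8. It was detected on 2 PVP10, 2 PVP75, 0 control, 0 citrate10 and 0 citrate75 arrays. It was thus counted as measured through the PVP groups only, and its citrate comparisons with control rest on background values. The rate-setting kinases Hk2, Pfkl, Pfkm and Pfkp and the regulators Pfkfb1, Pfkfb2, Pfkfb3 and Pfkfb4 were also at 0 arrays. So were most subunits of pyruvate dehydrogenase (Pdhb, Pdhx, Dlat, Dld) and 3 partners of the measured cycle genes, Ogdh, Sucla2 and Mdh1. A second probe of Idh2 was detected on 0 arrays while the first was detected on 24. An undetected probe therefore does not show that the gene was silent, and the pairing of probes with genes was not checked here.

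**Figure D1:**
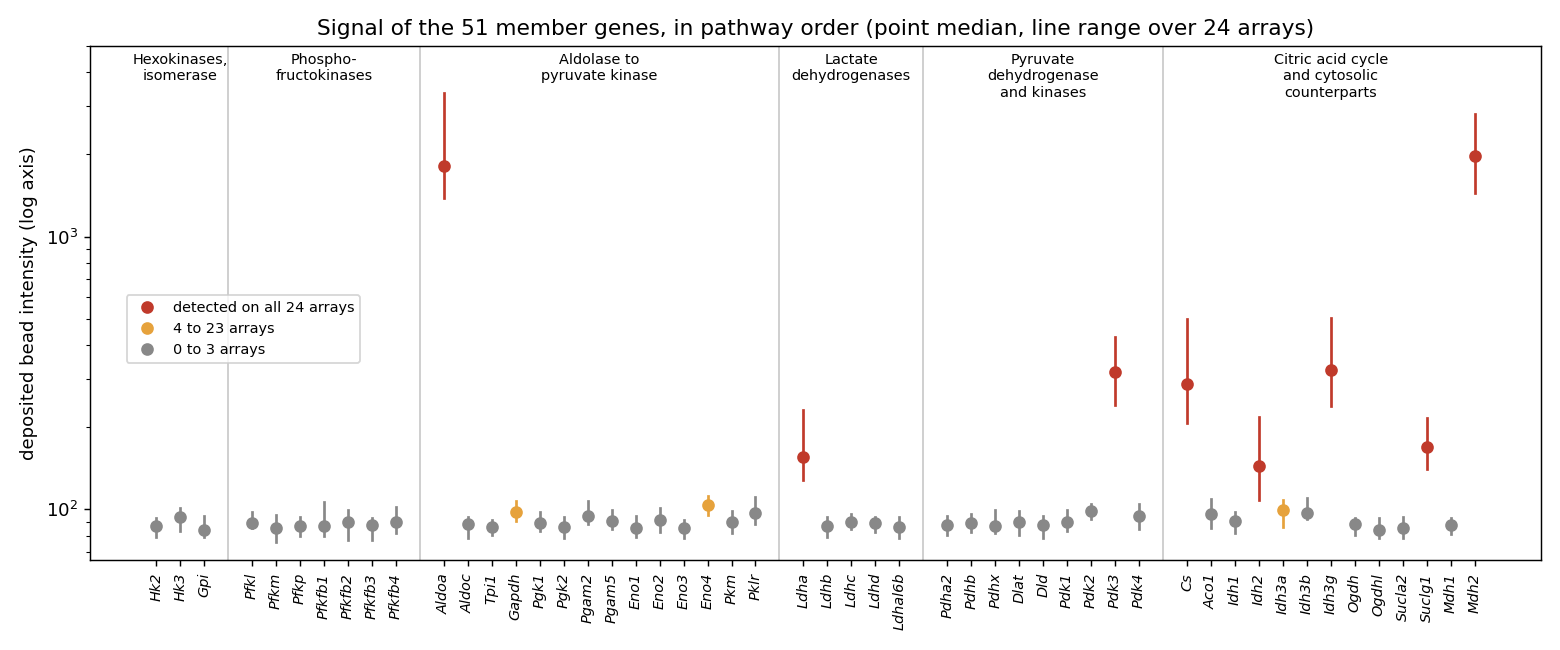
Deposited bead intensity on a log axis for the brighter probe of each of the 51 genes, in pathway order, with the median as a point and the range over 24 arrays as a line. Pgam5 is placed by its symbol. The 8 genes detected on all arrays rise from medians of 144 (Idh2) to 1970 (Mdh2), and the other genes lie near 100 or below.

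The measured genes that changed most sharply or sit at marked control points were also viewed by the sequence ahead of their start. RefSeq promoters were found for 10 of the 11 measured genes, with 3 starts for Aldoa, 12 promoters in all. The 250 bases before the start were searched on both strands for the hypoxia response element core (ACGTG), the MYC-type E-box (CACGTG, which contains ACGTG on both strands), the antioxidant response element core (TGACNNNGC), the metal response element core (TGCACNC or TGCGCNC) and the NRF1 palindrome. The promoters of Idh2 and Mdh2, which fell with PVP10, and of Ldha and Idh3g, which rose, are shown 5′ to 3′ on the gene's strand, with matches in capitals:
Idh2 (GRCr8 chr1:143467249-143467498, minus strand): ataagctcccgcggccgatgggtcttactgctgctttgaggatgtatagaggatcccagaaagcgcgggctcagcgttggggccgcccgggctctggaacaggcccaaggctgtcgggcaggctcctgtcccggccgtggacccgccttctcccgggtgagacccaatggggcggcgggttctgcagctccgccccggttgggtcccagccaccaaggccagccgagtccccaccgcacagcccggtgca
Mdh2 (GRCr8 chr12:26543842-26544091, minus strand): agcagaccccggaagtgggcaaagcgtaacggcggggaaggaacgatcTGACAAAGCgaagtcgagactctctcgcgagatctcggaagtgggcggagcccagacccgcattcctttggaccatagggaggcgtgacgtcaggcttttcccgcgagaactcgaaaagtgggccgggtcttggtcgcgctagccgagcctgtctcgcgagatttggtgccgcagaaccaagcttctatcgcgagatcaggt
Ldha (GRCr8 chr1:106507842-106508091, plus strand): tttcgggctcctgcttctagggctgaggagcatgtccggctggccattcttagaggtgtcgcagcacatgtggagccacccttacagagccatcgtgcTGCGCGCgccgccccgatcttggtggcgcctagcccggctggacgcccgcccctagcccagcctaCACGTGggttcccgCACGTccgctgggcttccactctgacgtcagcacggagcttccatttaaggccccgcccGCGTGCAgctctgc
Idh3g (GRCr8 chrX:156675483-156675732, minus strand): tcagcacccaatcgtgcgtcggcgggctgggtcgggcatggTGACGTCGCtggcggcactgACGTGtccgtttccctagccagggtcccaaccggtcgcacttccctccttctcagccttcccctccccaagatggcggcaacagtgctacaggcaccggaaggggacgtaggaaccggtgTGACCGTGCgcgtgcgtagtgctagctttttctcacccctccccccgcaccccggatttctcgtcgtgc

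Matches differed between these promoters. Idh2 held none of the 5 motifs. Ldha held an E-box at bases 87 to 82 before the start, a further hypoxia core at 73 to 69, and metal cores at 152 to 146 and 14 to 8. Idh3g held antioxidant cores at 209 to 201 and 69 to 61 before the start and a hypoxia core at 189 to 185, and Mdh2 held an antioxidant core at 202 to 194. Among the promoters not shown, those of Cs and Suclg1, which rose, and of Eno4, which was not called changed, held none of the 5 motifs. Those of Gapdh and Pdk3, also not called changed, held hypoxia and metal cores. Of the Aldoa promoters 1 held a hypoxia core. Of the 12 promoters, 5 held the hypoxia core and 3 a metal core, where 16.6% and 20.6% of all 33469 promoters did. The antioxidant core was in 2 (10.1% of all), the E-box in 1 (5.59%) and the NRF1 palindrome in 0 (0.762%). A match describes these letters only and says nothing about binding.

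PVP10 was first set against control, to ask what 10 nm particles with the PVP coat did to these genes. With PVP10, 7 of the 11 measured genes changed. Idh2 fell to 0.642 of control and Mdh2 to 0.826. Idh3g rose 1.27-fold, Ldha 1.25-fold, Cs 1.23-fold, Aldoa 1.21-fold and Suclg1 1.20-fold. A linear model over all 24 arrays (limma) was used, with p-values adjusted over the 2774 measured probes, and a gene is called changed below an adjusted p of 0.05. By that rule 41.8% of the 2748 entries tested changed with PVP10, 20.1% upward and 21.7% downward. Among entries detected on all 24 arrays 51.3% changed, and 7 of the 8 such members did. The median absolute log2 fold change was 0.271 over the 11 members, Gapdh and Idh3a included, and 0.206 over all entries. The members are few, so these shares do not set them apart. Fold changes are relative to the rest of the array, and in bulk RNA fewer cells of a type and less RNA per cell cannot be told apart.

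**Figure D2:**
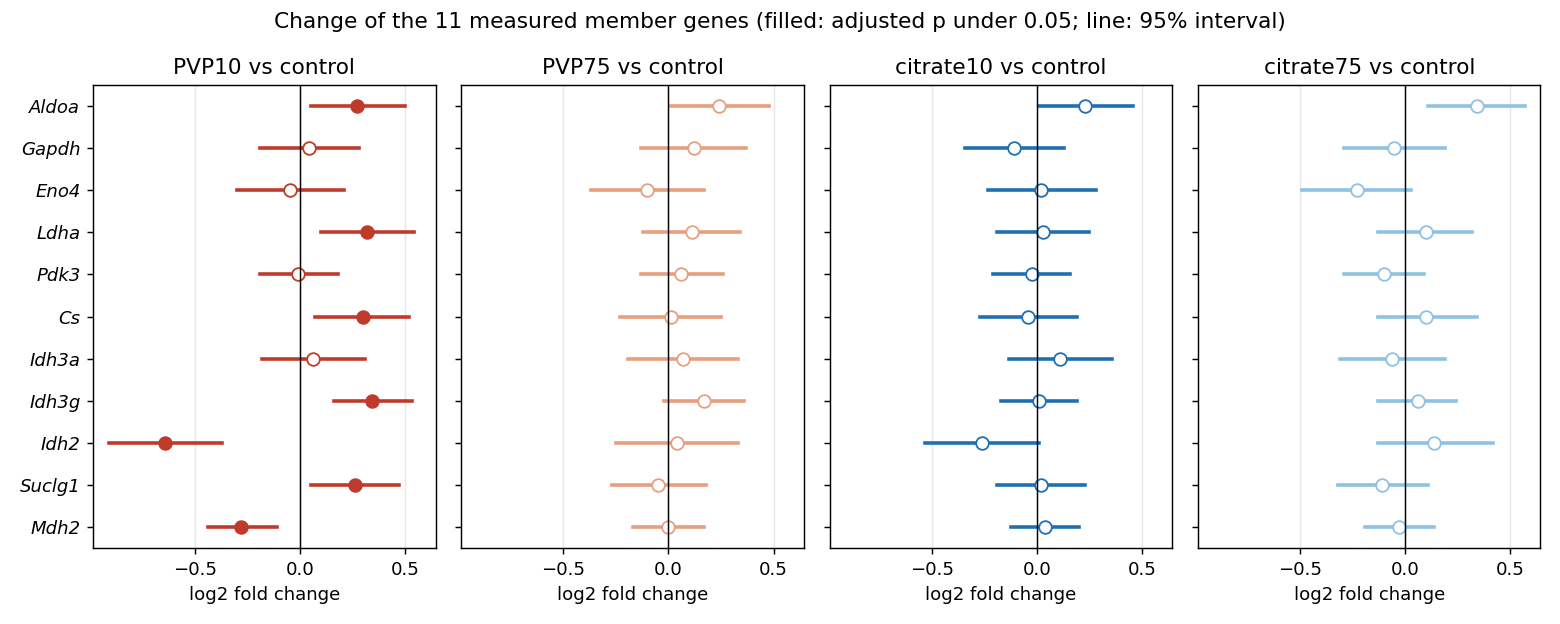
Log2 fold change against control (horizontal axis) of the 11 measured genes for each particle, with 95% intervals as lines and filled points where the adjusted p was under 0.05. Filled points appear for 7 genes with PVP10 and for 0 genes with the other 3 particles, all 4 panels sharing the same control arrays. Gapdh and Idh3a were above background on 0 control arrays, so their points are drawn but not read as folds.

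Among the isocitrate dehydrogenases, the mitochondrial genes moved in opposite directions. Idh2 encodes the enzyme that makes NADPH in the mitochondrial matrix. Its normalized log2 level was 6.37, 6.21, 6.20 and 6.30 on the control arrays and 5.94, 5.31, 5.63, 5.60 and 5.63 on the PVP10 arrays. Every PVP10 array lay below every control array. The share of all entries whose groups did not overlap was not counted, here or for the genes below. The log2 fold change was -0.64 (SE 0.132, 95% interval -0.91 to -0.37, adjusted p = 0.000247), with differences of -0.73 among the chip 1 arrays, 1 of them a control, and -0.57 among those of chip 2. It was the largest change among the members and rank 358 of 2748 by size. Idh2 was a dim probe, so its size depended on how background was treated. It was -0.41 with an offset of 50, -0.29 without background correction and -0.30 in the authors' normalized values, each with the call kept (adjusted p = 0.000592, 0.00108 and 0.00107). Under median scaling in place of quantile normalization it was the only member of the 7 still called (-0.74, adjusted p = 0.00368). Of all 2748 entries, 784 were called under that scaling.

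Idh3g encodes a regulatory subunit of the NAD-dependent isocitrate dehydrogenase of the citric acid cycle. It stood at 7.88, 7.88, 7.75 and 7.93 in controls and at 8.25, 8.07, 8.21, 8.26 and 8.20 with PVP10. The groups did not overlap. The log2 fold change was 0.34 (SE 0.0883, adjusted p = 0.00213), 0.38 on chip 1 and 0.34 on chip 2. Idh3a, the catalytic subunit of the same enzyme, was detected on 0 control and 0 PVP10 arrays, and no fold is read for it. Idh1, the cytosolic NADPH-forming enzyme, was detected on 0 arrays.

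Of the other cycle enzymes, Mdh2 fell while Cs and Suclg1 rose. Mdh2 encodes the mitochondrial malate dehydrogenase, which closes the cycle. Its levels were 10.96, 10.96, 10.96 and 10.82 in controls and 10.74, 10.67, 10.59, 10.69 and 10.57 with PVP10, again without overlap. It fell by 0.28 on the log2 scale (SE 0.0787, adjusted p = 0.00543), with -0.34 on chip 1 and -0.24 on chip 2, and was not called on either chip alone (adjusted p = 0.239 and 0.0617). The falls of Idh2 and Mdh2 and the rise of Idh3g were called whichever single array was left out and also without the filter on dim probes, which ended the other 4 calls. Under median scaling Mdh2 was at -0.11 and Idh3g at 0.23, neither called (adjusted p = 0.629 and 0.377).

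Cs encodes citrate synthase, which starts the cycle. Its level was 7.52, 7.64, 7.86 and 7.74 in controls and 8.05, 7.98, 7.91, 7.95 and 8.09 with PVP10, with the lowest PVP10 array just above the highest control. The log2 fold change was 0.30 (SE 0.112, adjusted p = 0.0332), 0.17 on chip 1 and 0.33 on chip 2. Suclg1 encodes the alpha subunit of the enzyme that turns succinyl-CoA into succinate. It was at 6.76, 6.46, 6.55 and 6.70 in controls and at 6.72, 6.57, 7.07, 6.85 and 7.13 with PVP10, and the groups overlapped. Its log2 fold change was 0.26 (SE 0.103, adjusted p = 0.0408). Without control replicate 1, control replicate 2, PVP10 replicate 1 or PVP10 replicate 5, Cs was no longer called (adjusted p up to 0.115). Suclg1 was not called without control replicate 2, control replicate 3, PVP10 replicate 3 or PVP10 replicate 5 (up to 0.156), nor without the chip term (0.0529). Median scaling gave 0.18 for Cs and 0.14 for Suclg1, neither called (adjusted p = 0.582 and 0.573), and without background correction Suclg1 was at 0.16.

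In glycolysis, Ldha and Aldoa rose. Ldha, which encodes the lactate-forming subunit of lactate dehydrogenase, was at 6.26, 6.25, 6.36 and 6.21 in controls and 6.35, 6.63, 6.46, 6.80 and 6.69 with PVP10. The lowest PVP10 array lay within the control range and the others above it. The log2 fold change was 0.32 (SE 0.106, adjusted p = 0.0163), 0.30 on both chips, and the call was lost without PVP10 replicate 4 (adjusted p = 0.0586). Ldha was at 0.17 without background correction, still called, and at 0.20 under median scaling, not called (adjusted p = 0.47).

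Aldoa, which encodes the aldolase that splits fructose bisphosphate, was at 10.65, 10.68, 10.64 and 10.60 in controls by its brighter probe. With PVP10 it was at 11.02, 10.70, 11.03, 10.93 and 10.88, all above the controls. The log2 fold change of 0.27 (SE 0.109) had an adjusted p = 0.047. The call was lost when any 1 of 15 of the 24 arrays was left out, each control array and 4 PVP10 arrays among them (adjusted p up to 0.112). Median scaling gave 0.44, not called (adjusted p = 0.0759). A further probe of Aldoa was at 0.14 (SE 0.111, adjusted p = 0.358) and was not called.

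**Figure D3:**
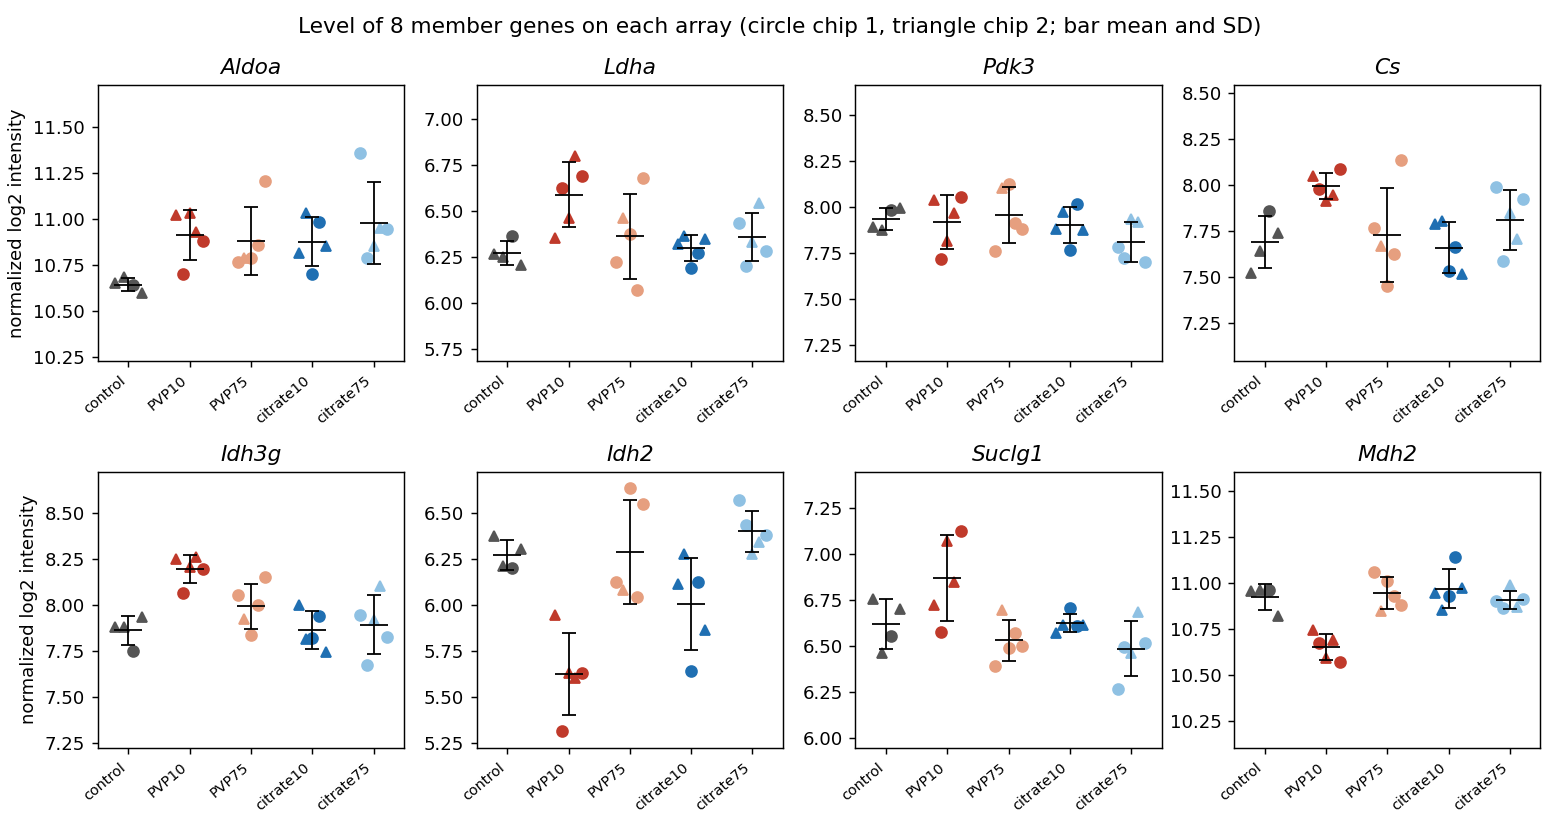
Normalized log2 intensity (vertical axis, 1.5 units in every panel) of the 8 genes detected on all 24 arrays, by group, with circles for chip 1, triangles for chip 2 and bars for the mean and SD (n = 4 for control, 5 for each particle). PVP10 lies below the other groups for Mdh2 and below control, PVP75 and citrate75 for Idh2. It lies above control for Idh3g and Cs, and for Aldoa every particle group does.

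The remaining measured members did not pass the test with PVP10. Pdk3 encodes a pyruvate dehydrogenase kinase, which restrains the entry of pyruvate into the cycle. It was at 7.89, 7.88, 7.98 and 7.99 in controls and 8.04, 7.72, 7.81, 7.97 and 8.06 with PVP10. Its log2 fold change was -0.01, with a 95% interval from -0.19 to 0.18. For Eno4, an enolase-related gene known mainly from mouse sperm, the value was -0.05 (interval -0.30 to 0.21). Gapdh, not above background on any control array, had a mean level of 4.73 in controls and 4.77 with PVP10, and no fold is read from these values.

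PVP75 was then set against control. Limma called 0 of the 11 measured genes, where 5.42% of all entries were called, 2.62% upward and 2.8% downward. At an unadjusted p under 0.05 there were 507 of 2748 entries and 1 member, Aldoa. Aldoa was at 10.77, 10.78, 10.78, 10.85 and 11.20 against 10.60 to 10.68 in controls. Its log2 fold change was 0.24 (SE 0.116, adjusted p = 0.246). Idh3g was at 0.17 (95% interval -0.02 to 0.36), Ldha at 0.11 (-0.12 to 0.34) and Cs at 0.01 (-0.23 to 0.25). Idh2 was at 0.04, with an interval of -0.25 to 0.33, and Mdh2 at 0.00, with an interval of -0.17 to 0.17. Suclg1 was at -0.05 (-0.27 to 0.18) and Pdk3 at 0.06 (-0.13 to 0.26), with Eno4 at -0.10 (-0.37 to 0.17). Mean levels of Gapdh were 4.73 in controls and 4.84 with PVP75, and those of Idh3a 4.71 and 4.83, with 0 control arrays above background for either.

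The citrate-coated particles were set against control in the same way, and limma called 0 of 11 members with either. With citrate10, 1 of 2748 entries (0.0364%) was called, with 114 at an unadjusted p under 0.05. With citrate75, 0 entries were called (0%), with 237 at an unadjusted p under 0.05 and 13 called with array weights, 0 of them members. In both comparisons Aldoa was the 1 member at an unadjusted p under 0.05. Its log2 fold change was 0.23 (SE 0.109, adjusted p = 0.996) with citrate10 and 0.34 (SE 0.112, adjusted p = 0.457) with citrate75. By its brighter probe Aldoa thus read above all 4 controls on every array of all 4 particles, its further probe overlapped the controls with PVP10 and PVP75, and these comparisons share the same control arrays. Between particles limma called no difference for Aldoa. It was at 0.03 (interval -0.19 to 0.25) for PVP10 against PVP75, 0.04 (-0.17 to 0.25) for PVP10 against citrate10, -0.11 (-0.32 to 0.11) for citrate10 against citrate75 and -0.10 (-0.31 to 0.12) for PVP75 against citrate75. These intervals reach sizes like those of its differences from control.

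Idh2 also read lower with citrate10, though it did not pass. It was at 6.11, 6.27, 5.64, 6.12 and 5.87, against a control mean of 6.27 ± 0.0828 (SD, n = 4). The log2 fold change was -0.26 (SE 0.132, interval -0.53 to 0.01, adjusted p = 0.996). With citrate75 it was at 6.57, 6.43, 6.27, 6.34 and 6.38, a log2 fold change of 0.14 (interval -0.13 to 0.42).

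Next, the particles were compared with each other. Between sizes within the PVP coat, 3 of 11 members differed, where 27.9% of all entries did, 12.9% upward and 15% downward. Idh2 was lower in PVP10 than in PVP75, whose arrays were at 6.12, 6.08, 6.63, 6.04 and 6.55. The difference was -0.68 on the log2 scale (SE 0.129, adjusted p = 0.00017) and the groups did not overlap. It was -0.31 without background correction, still called. Mdh2 differed by -0.28 (SE 0.0766, adjusted p = 0.00635), also without overlap, and by -0.11 under median scaling, not called. Suclg1 was higher by 0.31 (SE 0.1, adjusted p = 0.0195), a call lost without PVP10 replicate 3 or 5 (adjusted p up to 0.135), and by 0.19 without background correction, still called. Cs was at 0.28 (interval 0.06 to 0.51) and was not called (adjusted p = 0.0508). It was called without background correction, with an offset of 50, in the authors' values, among probes detected on all 24 arrays and with array weights (adjusted p from 0.0376 to 0.0445). Ldha was at 0.21 (adjusted p = 0.131). PVP75 replicate 5 was the highest array of its group for both genes, and without it both were called, Cs at 0.38 and Ldha at 0.29 (adjusted p = 0.00511 and 0.0302). Cs was also called without any 1 of 4 citrate arrays. Chip 2 held 1 PVP75 array, and there Idh2 was at -0.35 and Mdh2 at -0.17, with 0 members called.

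Between coats at 10 nm, 6 of 11 members differed, where 41.8% of all entries did, 20.3% upward and 21.5% downward. Idh3g was higher in PVP10 than in citrate10 by 0.33 (SE 0.0829, adjusted p = 0.00155), Cs by 0.33 (SE 0.105, adjusted p = 0.0107), Ldha by 0.29 (adjusted p = 0.0201) and Suclg1 by 0.25 (adjusted p = 0.0411). Mdh2 differed by -0.31 (SE 0.0738, adjusted p = 0.000883) and Idh2 by -0.38 (SE 0.124, adjusted p = 0.0142). Under median scaling 0 of these 6 were called, with Mdh2 at -0.08, where 796 of 2748 entries were called. Without background correction Idh2 was at -0.17, Ldha at 0.16 and Suclg1 at 0.15, all still called. With array weights Ldha was not called (0.22, adjusted p = 0.0558). Arrays of the 2 groups did not overlap for Idh3g, Cs and Mdh2, and the share of all entries without overlap was not counted. Single arrays decided the call for Idh2 (PVP10 replicate 2 or citrate10 replicate 2, adjusted p up to 0.0626), for Ldha (3 arrays, up to 0.0716) and for Suclg1 (6 arrays, up to 0.185, with 0.16 on the log2 scale without PVP10 replicate 5).

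**Figure D4:**
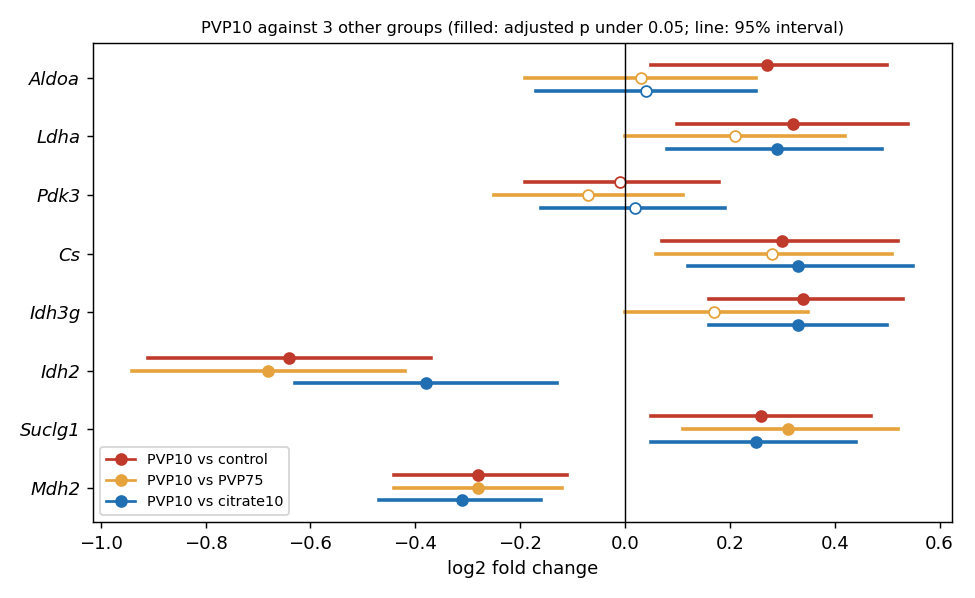
Log2 fold change (horizontal axis) of PVP10 against control, PVP75 and citrate10 for the 8 genes detected on all arrays, with 95% intervals and filled points where the adjusted p was under 0.05. Mdh2 lies between -0.31 and -0.28 in all 3 comparisons, and Aldoa is filled against control only. All 3 use the same PVP10 arrays.

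Between coats at 75 nm limma called 0 of 11 members, where 14.1% of all entries were called, 6.55% upward and 7.57% downward. At an unadjusted p under 0.05 there were 0 members and 728 of 2748 entries. Pdk3 had the smallest p, at 0.16 (interval -0.02 to 0.34, adjusted p = 0.236). Between citrate sizes 0 of 11 members were called, where 0.146% of entries were. An unadjusted p under 0.05 was found for 2 members and for 376 of 2748 entries. Idh2, with the smallest p, was at -0.41 in citrate10 against citrate75 (SE 0.126, adjusted p = 0.159). Eno4, detected on 4 citrate10 arrays and 1 citrate75 array, was at 0.25 (adjusted p = 0.336), a value close to background.

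The size effect was then compared between coats by an interaction term, called for 15.2% of entries, 7.02% upward and 8.19% downward, and for 1 of 11 members. For Mdh2 the difference between the size effects was -0.35 (SE 0.105, interval -0.56 to -0.13, adjusted p = 0.0229). Mdh2 was at -0.28 for PVP10 against PVP75 and 0.07 for citrate10 against citrate75. Under median scaling the Mdh2 interaction was -0.12 (adjusted p = 0.83), and on chip 2 alone -0.17 (adjusted p = 0.64). For Cs the interaction was 0.42 (SE 0.149, adjusted p = 0.0515), on the edge of the threshold. For Idh2, at -0.68 between PVP sizes and -0.41 between citrate sizes, it was -0.27 (interval -0.64 to 0.09, adjusted p = 0.354).

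Genes outside the set, of neighbouring routes and of succinate dehydrogenase, were read from lists of 147 genes, of which 110 had a probe and 21 were measured. With PVP10, 9 rose and 5 fell, where 20.1% of all entries rose and 21.7% fell. With PVP75, 5 rose and 0 fell, where 2.62% and 2.8% of all entries did. The lists were chosen with earlier results of these data known, so these counts do not set the neighbouring routes apart from the array. Of 11 glucose and lactate transporters with a probe 0 were measured. Of the 2 measured genes of the pentose phosphate pathway, which branches off glycolysis, Pgls fell by 0.49 (SE 0.0924, adjusted p = 7.66e-05) and Taldo1 rose by 0.21 (SE 0.0845, adjusted p = 0.0449) with PVP10. Of 2 measured hexose phosphate genes, Gfpt1, the entry enzyme of hexosamine synthesis, rose by 0.89 with PVP10 and by 0.47 with PVP75 (adjusted p = 1.22e-09 and 0.00127). Gmppb, which makes GDP-mannose, fell by 0.50 with PVP10 (adjusted p = 0.000627).

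Sdhb, the iron-sulfur subunit of succinate dehydrogenase and the 1 measured gene of its list, rose by 0.24 with PVP10 (SE 0.0985, adjusted p = 0.0481). Of 4 measured anaplerosis and shuttle genes 2 rose with PVP10, the cytosolic malic enzyme gene Me1 by 1.09 and the mitochondrial one, Me2, by 0.38 (adjusted p = 1.19e-10 and 0.0341). The other two, Acss2 and Slc25a1, were at 0.28 and -0.06. Of 6 measured regulators 2 rose and 2 fell. Prkaa1, a catalytic subunit of the energy sensor AMPK, rose by 1.36 with PVP10 and 0.57 with PVP75 (adjusted p = 3.22e-13 and 0.000156). Hif1an, which restrains hypoxia-inducible factor, rose by 0.54 with PVP10, while Myc (-0.80) and Egln2 (-0.25) fell. Of 3 measured hypoxia targets outside glycolysis, Ddit4 and Vegfa rose with both PVP particles and Adm fell with PVP10. Hagh, Pck1 and Pdpr, the measured genes of the glycolytic side branch and pyruvate entry lists, were not called. Genes outside the set, the markers below included, were not followed under other processing or with arrays left out.

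Cell identity could be checked only in part. Of 14 endothelial markers with a probe, 11 were detected on 0 arrays and 1, Tie1, was measured, on 6 arrays. Of 7 astrocyte markers, 6 were at 0 arrays and 1, Slc1a2, was measured, with called log2 fold changes of 4.19 with PVP10, 3.45 with PVP75 and 1.70 with citrate10, and 0.30, not called, with citrate75. The summed intensities of the astrocyte list, in which Slc1a2 was the 1 measured gene, ran from 639 to 671 in controls, 1080 to 1680 with PVP10, 931 to 1160 with PVP75, 705 to 788 with citrate10 and 611 to 675 with citrate75. Those of the endothelial list ran from 1260 to 1320 in controls and from 1190 to 1260 with PVP10. With the other particles they ran from 1180 to 1300 (PVP75), 1180 to 1260 (citrate10) and 1180 to 1270 (citrate75). Of 10 neuron markers 3 were measured. Nefm rose by 0.25 with PVP10 (adjusted p = 0.047), and Rbfox3 was at -0.06, not called (adjusted p = 0.741). Gad2 was called lower, but it was above background on 2 control and 0 PVP10 arrays, and no fold is given. The neuron list's summed intensity was 934 to 977 in controls and 877 to 938 with PVP10. It was 866 to 954 with PVP75, 885 to 932 with citrate10 and 888 to 950 with citrate75. All these sums are of deposited intensities, not normalized, and most genes of each list were detected on 0 arrays. No pericyte, fibroblast, microglia or oligodendrocyte marker was measured. The part of other cell types in the results was not tested.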

How the data were processed

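RNA of 24 RBEC4 samples was measured on Illumina rat BeadChips. Per the file headers, each of 22523 probes has on each array a deposited bead intensity with its detection p-value. Judged by its values and header, this intensity was not normalized, and the submitters' processing notes list GenomeStudio 2011.1. A further deposited table of intensity values, which by its values was quantile normalized by the authors, served as an alternative. Probe symbols came from the platform annotation and were not checked against probe sequences.

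From the signals, background was corrected by normexp with negative controls that limma 3.58.1 in R 4.3.3 infers from detection p-values (offset 16), followed by quantile normalization and log2. Probes detected at p under 0.01 on at least 4 arrays were kept, 2774 in all, and between 2128 and 2576 probes were detected per array. A gene was represented by its brightest kept probe, which left 2748 entries. limma (lmFit, eBayes) was fitted to all arrays with group and BeadChip as terms, and p-values were adjusted by Benjamini-Hochberg over the kept probes within each comparison. The number of arrays limits the precision, and standard errors of log2 fold changes had medians of 0.104 to 0.117. Chip 1 held 1 control and 4 of the 5 PVP75 arrays. The fit was tested on simulated data. Every measured member was named, with up to 4 called genes of each pathway list. The members, lists and motifs were chosen with earlier results of these data known.

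Alternatives were background treatment, normalization, probe filter, chip term, array weights, a replicate block and each array left out. In the main fit no same-numbered arrays were treated as pairs. Of 46 same-numbered pairs, 1 deviated together at r over 0.1 (median r 0.00532). No 2 arrays held identical signals.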

Additional observations from a re-analysis of the deposited data

Results flagged for a closer look

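For Mdh2 the size effects under the 2 coats differed by -0.35 on the log2 scale (limma, adjusted p = 0.0229). It was the 1 of 11 members called for this interaction, where 15.2% of all entries were called. The call was lost under median scaling (-0.12, adjusted p = 0.83), on chip 1 alone (-0.49, adjusted p = 0.18) and on chip 2 alone (-0.17, adjusted p = 0.64).

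Single arrays stood apart from their group in 3 of the 55 sets of 1 gene in 1 group, where chance marks about 1 in 20 sets. Mdh2 on control replicate 4 was at 10.82 against 10.96 on each of the other control arrays, a gap of 0.951 of the group's range. Aldoa on PVP75 replicate 5 was at 11.20, above 10.77 to 10.85 on the others (0.799 of the range). Aldoa on citrate75 replicate 1 was at 11.35, above 10.79 to 10.95 (0.719 of the range).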

How the results depend on the processing

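The direction of every called member change held under each alternative, and 0 called values reversed. With PVP10 against control, 7 members were called, 1 under median scaling, 3 without the probe filter (of 51 genes), 0 on chip 1 alone, which held 1 control array, and 4 with the replicate block, where Aldoa, Cs and Suclg1 were lost (adjusted p = 0.0751, 0.0605 and 0.0579). Leaving out single arrays gave 4 to 7, with 4 without control replicate 2 or PVP10 replicate 5. For PVP10 against PVP75 (3 called) the count was 1 under median scaling, 1 on chip 1, 0 on chip 2 and 2 to 5 without single arrays (5 without PVP75 replicate 5). For PVP10 against citrate10 (6 called) it was 0 under median scaling, 2 without the filter, 0 on chip 1, 2 on chip 2 and 4 to 6 without single arrays. For the interaction (1 called) it was 2 without background correction, with an offset of 50, in the authors' values, for probes detected on all 24 arrays and with array weights, Cs joining in each, and 0 under median scaling and on either chip alone. Without single arrays it was 1 to 2. The replicate block changed no other call of a member. Under median scaling standard errors were larger (0.189 against 0.132 for Idh2 in PVP10), and without the filter 22067 entries were tested. Idh2 in PVP10 against control kept its call under each alternative but chip 1 alone (-0.73). In PVP10 against citrate10 Idh2 lost its call under median scaling, without the filter (adjusted p = 0.0815 and 0.119) and on chip 1. In PVP10 against PVP75 it lost its call on chip 2 (-0.35), which held 1 PVP75 array. In the comparisons with 0 members called, the count stayed at 0 in all alternatives and without any single array. Under median scaling 784 of 2748 entries were called for PVP10 against control and 796 of 2748 for PVP10 against citrate10. Without the filter 899 and 954 of 22067 entries were called, in the same order. With the replicate block 1127 of 2748 entries were called for PVP10 against control. Over all entries, counts moved by more than 1.5 times under median scaling for PVP75 against control (149 to 30), PVP10 against PVP75 (768 to 392), PVP75 against citrate75 (388 to 143) and the interaction (418 to 75), and without the filter for PVP75 against control, PVP75 against citrate75 and the interaction (68, 203 and 234). On chip 1 alone they fell to 367 of 1148 for PVP10 against control, 6, 377, 125 and 35 for those 4 and 516 of 1148 for PVP10 against citrate10, and on chip 2 alone to 44, 344, 14 and 148 for those 4. Between citrate sizes the count of 4 ranged from 1 to 72. Of 672 gene results under alternatives that kept all arrays or 1 chip, 56 lost and 10 gained a call. Genes near background, Gapdh, Idh3a and Eno4 here, limit what these probes can show.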
